A study of Homo sapiens with 6 samples.

Results

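Chromosome 17 carried 904 of the 19108 regions (4.73%) that were listed for full-length ZNF469 in CUT&RUN of LX-2 cells. The chromosome was chosen by its number of regions per Mb, the highest of 24 chromosomes, so that density is a property of the selection and is given below as a description. The comparison group, the same cells with dZF-ZNF469, had 54 regions in all and 1 on chromosome 17. CUT&RUN uses an antibody, here against ZNF469, to bring a nuclease to chromatin, and the released fragments are sequenced. LX-2 is an immortalized line made from human hepatic stellate cells. Both groups consisted of LX-2 cells with a doxycycline-inducible piggyBac transgene and received 1 ug/mL doxycycline for 24 h in medium with 2-Phospho-L-ascorbic acid. One transgene encoded the full-length human protein with an N-terminal 3xHA tag (label clone3.4) and the other a version with a deletion of most zinc fingers (label clone3.1). Each of the 2 groups had 3 libraries, and the authors deposited 1 list per group in which the libraries were combined, so no value per library and no replicate error could be given. The transgene was added to a line that keeps its own ZNF469 gene, and the sources used here do not say whether a clone label names a clone of cells or of plasmid. Construct and cell line cannot be told apart.

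Hepatic stellate cells are the main source of scar collagen in the liver. When activated they lose their vitamin A stores and secrete fibrillar collagen, and COL1A1 on the long arm of chromosome 17 (17q) encodes the alpha-1 chain of type I collagen, the most abundant collagen of scar tissue. ZNF469 is a large zinc finger protein, and mutations in its gene are known from brittle cornea syndrome, a disorder of connective tissue. AP-1, a dimer of FOS and JUN proteins, is the factor whose motif is commonly found at enhancers of fibroblast-like cells, and TEAD factors act beside it as partners of YAP and TAZ.

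Each region came with a fold enrichment and a −log10 p-value, from which 2 numbers were recovered. The pileup is the number of pooled fragments over the summit, the highest point of the region. The local background is the number of fragments that the caller expected there from the surroundings. A whole-number pileup accounted for 100% of the 904 pairs of values. Leaving out those at the lowest value, the 683 backgrounds under 3 fragments were each a whole multiple of 0.0103 fragments, within 0.02 steps, which is 103 bp of fragments spread over a 10 kb window. On that basis the background was taken to count fragments of the same pool within 10 kb, those of the region included. Backgrounds of 3 fragments or more were not tested in this way, and use of a control library is not given in the sources used here. The limits beside pileups are 95% Poisson limits and those beside shares are 95% Wilson limits, and both cover counting error only.

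To show what the listed regions look like, hg38 bases around the summits of 7 regions were read from the reference, 5′ to 3′ on the plus strand. Capitals mark matches to the motifs searched, which were AP-1 TGANTCA, TEAD GGAATG, RUNX TGTGGT, NFY CCAAT, SP/KLF GGGCGG and ETS CCGGAAG on either strand. The first region, in NKIRAS2, had the highest fold on the chromosome, and since its summit lies in a UTR only 30 bases around its AP-1 match are shown, chr17:42024872-42024901. NKIRAS2 encodes a small GTPase-like inhibitor of NF-kappaB signalling. The next came from the region with the highest pileup, inside COL1A1 (chr17:50196884-50197044), and from the COL1A1 region with the highest local background (chr17:50191217-50191377). The fourth had the highest fold among regions outside promoters with an AP-1 match and lies 5.20 kb from the start of CAVIN1 (chr17:42428379-42428539), which encodes a coat protein of caveolae. The last 3 were added after their values were seen, as 1 example each of a dense intronic locus in VMP1 (chr17:59754590-59754750), of the short arm (17p) at the start of CTNS (chr17:3636321-3636458, cut where the UTR begins) and of the region that the dZF list also held (chr17:26885365-26885525).
NKIRAS2: taactgggctaTGAGTCAccagcccacttt
COL1A1, highest pileup: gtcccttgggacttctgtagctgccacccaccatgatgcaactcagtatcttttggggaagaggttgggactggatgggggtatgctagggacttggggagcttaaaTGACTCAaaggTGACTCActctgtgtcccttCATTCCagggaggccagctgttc
COL1A1, highest background: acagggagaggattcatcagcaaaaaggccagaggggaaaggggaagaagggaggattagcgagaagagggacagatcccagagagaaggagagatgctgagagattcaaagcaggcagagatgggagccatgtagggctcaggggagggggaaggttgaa
near CAVIN1: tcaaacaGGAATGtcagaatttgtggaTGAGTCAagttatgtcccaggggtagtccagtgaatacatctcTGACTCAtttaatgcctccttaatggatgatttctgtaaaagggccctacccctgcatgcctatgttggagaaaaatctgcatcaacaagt
VMP1 intron: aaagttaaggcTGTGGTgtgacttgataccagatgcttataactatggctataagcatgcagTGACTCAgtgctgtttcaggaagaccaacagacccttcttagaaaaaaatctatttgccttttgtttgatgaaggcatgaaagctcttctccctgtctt
CTNS start: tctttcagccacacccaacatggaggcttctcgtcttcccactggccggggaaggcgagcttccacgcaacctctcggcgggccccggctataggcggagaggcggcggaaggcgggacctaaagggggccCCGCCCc
shared with dZF: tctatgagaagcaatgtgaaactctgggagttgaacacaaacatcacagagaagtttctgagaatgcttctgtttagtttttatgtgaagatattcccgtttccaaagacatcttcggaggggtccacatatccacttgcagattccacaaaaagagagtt

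The COL1A1 sequence with the highest pileup held a pair of AP-1 matches and 1 TEAD match, whereas the COL1A1 sequence with the highest background held no match to any of the 6 motifs. The sequence near CAVIN1 likewise had a pair of AP-1 matches and 1 TEAD match, and the VMP1 sequence had an AP-1 and a RUNX match. The CTNS sequence, from a CpG-rich start, shows an SP/KLF match on the minus strand. Because near-identical copies can share reads, exact matches to the central 31 bases of each of the 904 regions were counted in hg38. Copies that differ by a base there were not counted. They occurred once for 896 regions and more than once for 8 (0.885%). The sequence shared with dZF was present 1347 times, 1342 of them on chromosome 17, and the region at chr17:1779461-1779587 had 345 copies on 24 chromosomes. Which copy the fragments of those regions came from cannot be told from the list.

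Chromosome 17 had 10.9 regions per sequenced Mb against 6.38 on all other chromosomes together, a ratio of 1.71. The next chromosomes in this order were chromosome 5 with 9.04 and chromosome 12 with 8.46 per Mb. Chromosome 17 is also dense in genes, with 14.3 protein-coding genes per Mb against 6.6 elsewhere, second to chromosome 19 with 25.3. Counted per protein-coding gene the order turned, with 0.762 regions per gene on chromosome 17 and 0.966 elsewhere (ratio 0.789), which placed it 18th of the 24. The count per gene was thus low against the other chromosomes together, but it was not low among gene-dense chromosomes. Chromosome 19 had 0.304 regions per gene. The 3 chromosomes with the nearest gene density were 22, 16 and 11, all below chromosome 17 with 11.4, 10.5 and 9.79 genes per Mb. They had fewer regions per Mb, 7.02 on chromosome 22, 4.61 on chromosome 16 and 6.64 on chromosome 11. Their regions per gene were also fewer, 0.615, 0.440 and 0.678 in the same order.

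**Figure D1:**
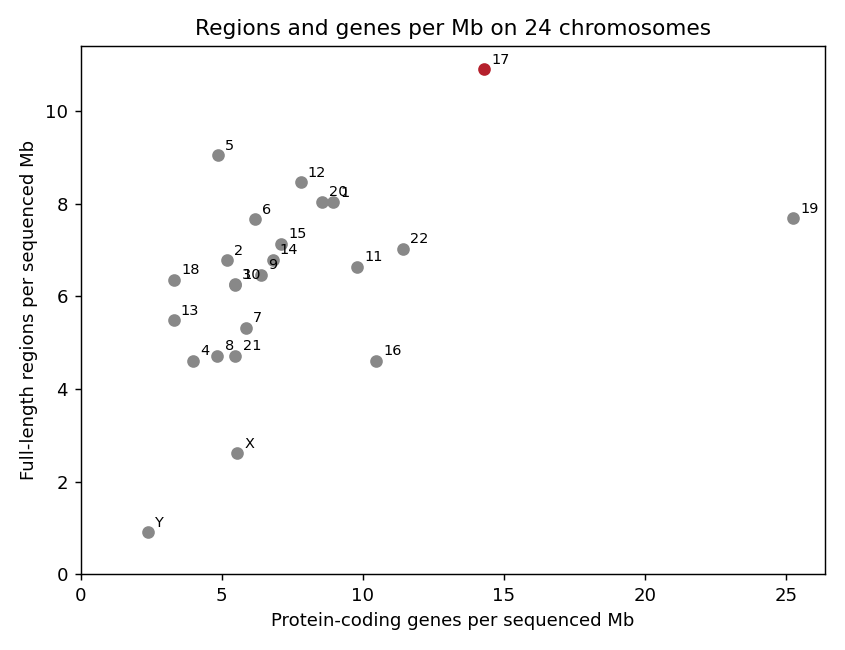
Protein-coding genes per sequenced Mb (x axis) and full-length regions per sequenced Mb (y axis), 1 point per chromosome, labelled by its name and with chromosome 17 in red. Chromosome 17 lies highest at 10.9 regions and 14.3 genes per Mb, and chromosome 19, with 25.3 genes per Mb, lies at 7.68 regions per Mb.

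The regions of chromosome 17 had a median pileup of 23 fragments (quartiles 18 and 30, range 7 to 138), where the median elsewhere was 20. The median local background was 2.15 fragments on chromosome 17, which only chromosome 5 exceeded (2.47), and 1.80 on the other chromosomes together. The median fold was nearly the same, 7.35 on chromosome 17 and 7.36 elsewhere. Pileup and background were thus both higher while their ratio was not. Among the 100 regions of the whole list with the highest pileup 18 lay on chromosome 17, and among the 100 with the highest background 21 did. Among the 100 with the highest fold there were 7. The chromosome held 4.73% of the whole list. Of the top 1000 regions it held 8.2% by pileup, 7% by background and 6.9% by fold. The 10 highest pileups and the 10 highest backgrounds of the chromosome all lay in or beside COL1A1 and VMP1, described below. When only the upper 25% of regions by pileup were counted, the density of chromosome 17 relative to the others was 2.38, and it was 1.82 for the upper 25% by fold.

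Along the chromosome the regions were unevenly spread. Of 84 bins of 1 Mb, 4 held no region, the median bin held 9 (quartiles 4 and 15) and the fullest held 33. Protein-coding starts had a median of 11 per bin. Bins with more starts tended to hold more regions, with a Spearman correlation of 0.582 and a Pearson correlation of 0.574 over the 84 bins, which are neighbours on 1 molecule, share the same pooled libraries and differ in base composition. The same Spearman value on the other chromosomes ran from 0.187 on chromosome Y to 0.835 on chromosome 22, and chromosome 17 was 11th of 24. For regions outside promoters the Spearman correlation was 0.21. Promoter regions lie near starts by definition, so the lower value outside them follows in part from how the classes were drawn. The 46 bins with at least 10 coding starts had a median of 13 regions and the 38 with fewer a median of 5. A rich bin was not always a full one, since 17 of the 46 held under 10 regions.

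**Figure D2:**
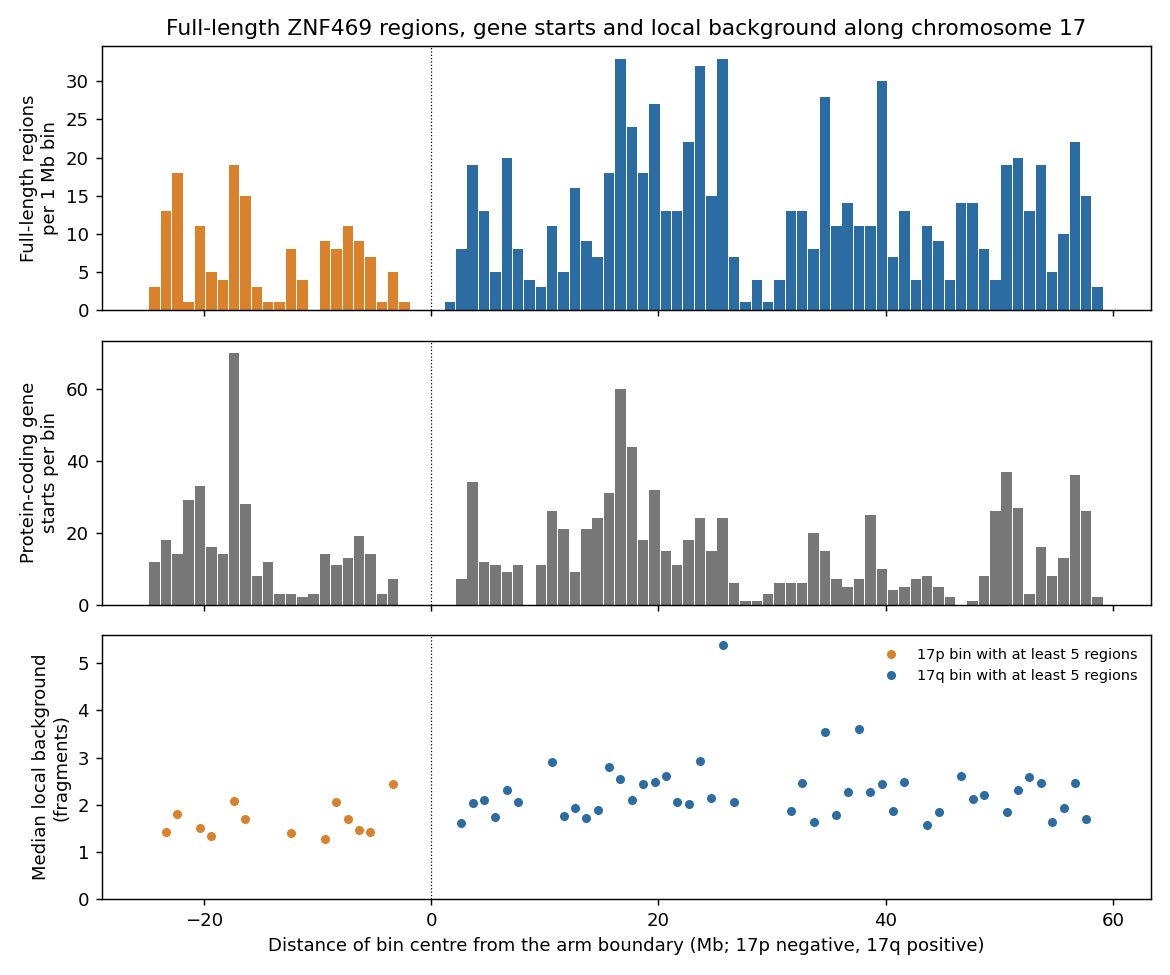
Regions per 1 Mb bin (top, 17p orange and 17q blue), protein-coding starts per bin (middle) and median local background in fragments of bins with at least 5 regions (bottom), by the distance of the bin centre from the arm boundary in Mb. The fullest bins, up to 33 regions, lie on 17q. In the bottom panel 16 of the 47 bins of 17q lie above the highest bin of 17p (2.44).

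The 5 fullest bins held 156 regions, 17.3% of the total, with 11.2% of the coding starts. All were on 17q. The bin from 41 to 42 Mb had 33 regions and 60 coding starts, most of them of keratin-associated protein genes, which hair follicles use and stellate cells are not known for. The bin from 50 to 51 Mb, with COL1A1 and the integrin gene ITGA3, also had 33 regions with 24 starts and had the highest median background of any bin, 5.39 fragments. The bin of the HOXB genes, from 48 to 49 Mb, held 32 regions with 24 starts. Fewer genes accompanied the regions in the bin from 64 to 65 Mb, where 30 regions met 10 starts, among them those of ERN1, a sensor of unfolded proteins in the endoplasmic reticulum, PECAM1, an endothelial adhesion molecule, and SMURF2, a ubiquitin ligase that limits TGF-beta signalling. The bin from 59 to 60 Mb, with the clathrin heavy chain gene CLTC, the S6 kinase gene RPS6KB1 and VMP1, held 28 regions with 15 starts.

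At the other end, 4 bins were empty. 3 of them, from 23 to 26 Mb, contain no coding start and lie in the gene-free stretch around the centromere. The fourth, from 14 to 15 Mb on 17p, contains COX10, a gene for haem synthesis in mitochondria, CDRT15 and the heparan sulfate enzyme gene HS3ST3B1. Single regions were found in some gene-rich bins as well. The bin from 3 to 4 Mb had 29 coding starts, 12 of them within the span of the olfactory receptor genes, and its 1 region lay at CTNS and SHPK. The bin from 10 to 11 Mb had 12 starts, including the skeletal muscle myosin genes, and 1 region.

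**Figure D3:**
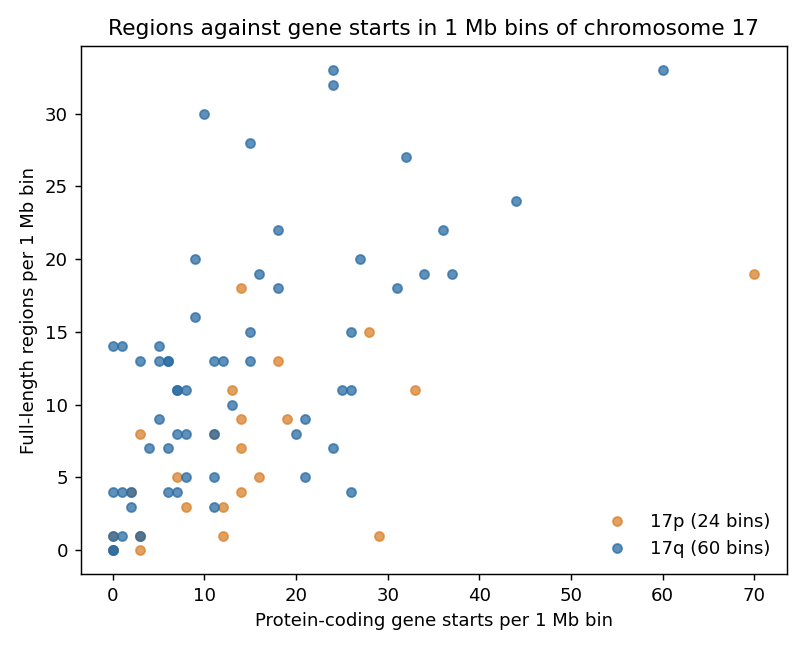
Protein-coding starts (x axis) and full-length regions (y axis) in each 1 Mb bin of chromosome 17, 17p in orange and 17q in blue. Bins with equal numbers of starts held between a few and 33 regions, and the 17p bin with 70 starts held 19.

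To compare the arms, a boundary was set at 24.8 Mb, in the middle of the longest stretch without an annotated gene (4.27 Mb). 17p held 157 regions on 24.8 Mb and 17q held 747 on 58.4 Mb. That gave 6.32 and 12.8 regions per Mb, a ratio of 2.02, although coding starts per Mb were alike at 13.9 and 14.4. 17p was thus close to the 6.38 per Mb of the other chromosomes together, and 17q was above it. On its own 17q exceeded each of the other 23 chromosomes in regions per Mb, while 17p exceeded 10 of the 23. Since the chromosome was chosen as the densest, at least 1 of its arms had to exceed all others, so the rank of 17q describes the selection. The other chromosomes were not split by arm. The arm values count all bases, whereas those of the chromosomes count sequenced bases only. In bins with at least 10 coding starts the median was 9 regions on 17p (15 bins, quartiles 4.5 and 12) and 15 on 17q (31 bins, quartiles 9.5 and 22), with a median of 14 and 21 starts in those bins, and the ranges of 1 to 19 and 3 to 33 overlapped.

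The arms differed less at gene starts than between them. A region within 3 kb of the start was found for 90 of 346 coding genes on 17p (26.0%, limits 21.7 to 30.9%) and for 245 of 840 on 17q (29.2%, 26.2 to 32.3%), and those limits overlap. Outside promoters the density was 2.09 per Mb on 17p and 5.72 on 17q, a ratio of 2.73, against 1.67 for promoter regions. Intergenic regions made up 7.64% of the regions of 17p (4.43 to 12.9%) and 16.1% of those of 17q (13.6 to 18.9%). Among the upper 25% of the chromosome by pileup the ratio was 3.27, with 26 regions on 17p and 200 on 17q.

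The local background was also higher on 17q. Its median was 1.49 fragments on 17p (quartiles 1.27 and 2.16) and 2.24 on 17q (quartiles 1.76 and 3.02), a ratio of 1.5, and the quartile ranges overlapped. Set among the other 23 chromosomes, the median of 17p was above 3 of them and that of 17q above 22. The median pileup followed with 19 and 24 fragments (ratio 1.26), and the median fold did not, with 7.48 and 7.31. The lowest background the list allows, 0.865 fragments, was reached by 9 regions of 17p (5.73%) and 3 of 17q (0.402%). The difference was present in both kinds of region, with medians of 1.60 and 2.29 in promoters and 1.42 and 2.18 outside them.

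Because the background, on this reading, counts fragments of nearby regions too, the comparison was repeated for regions with no other summit within 50 kb. The 44 such regions of 17p had a median background of 1.31 and the 126 of 17q one of 1.81, a ratio of 1.39. Their median pileups differed as well, 17 on 17p and 21 on 17q. A region's own fragments remain in its background, so this comparison does not isolate the surroundings. The background of a bin had almost no relation to its number of coding starts, with a Spearman correlation of 0.034 over the 60 bins with at least 5 regions, and a closer one to its number of regions, 0.552. Bins of 1 chromosome share libraries and neighbours, so these are descriptions. The 13 bins of 17p with at least 5 regions had median backgrounds from 1.28 to 2.44, and the 47 of 17q from 1.57 to 5.39. 16 of the 47 exceeded the highest of those 13 and 0 lay below their median. The 17p bin from 0 to 1 Mb had only 3 regions and was left out by this rule, with a median background of 3.65. By 10 Mb segments the median was 1.63 and 1.45 in the segments before 20 Mb, highest at 2.86 from 50 to 60 Mb and 2.02 in the last segment.

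**Figure D4:**
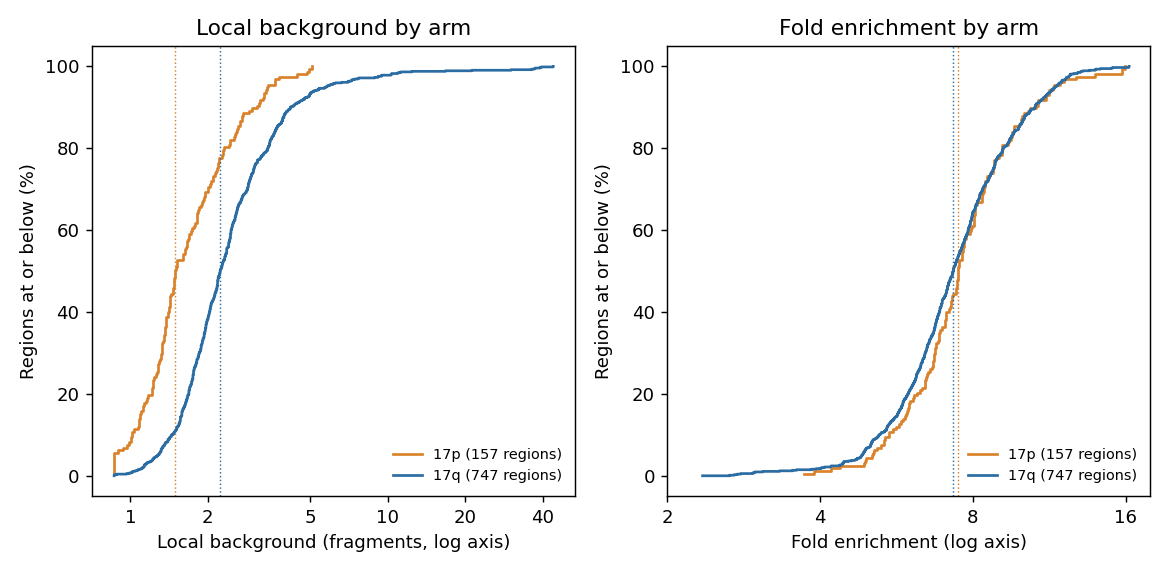
Cumulative share of regions (y axis, %) by local background in fragments (left) and by fold enrichment (right), both on log axes, for 17p (orange) and 17q (blue), with dotted lines at the medians. The background curves are apart (medians 1.49 and 2.24 fragments) and the fold curves nearly coincide (medians 7.48 and 7.31).

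The densest loci were runs of regions with gaps of at most 10 kb. There were 682 such loci, of which 532 were single regions (58.8% of all regions), 108 had 2, 38 had 3 or 4, and 4 had at least 5. All 4 lay on 17q and together held 33 regions (3.65%). Their regions had a median background of 8.92 fragments and a median pileup of 47, where single regions had 1.88 and 21.

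The longest run covered COL1A1 and the end of SGCA, a sarcoglycan gene of muscle, at chr17:50173540-50220222, with 14 regions in 46.7 kb. Its pileups ran from 39 to 138 (limits of the highest 116 to 163) and its backgrounds from 6.12 to 44 fragments. The 8 regions inside COL1A1, a gene of 17.5 kb, covered 19.1% of the gene and were the 8 highest backgrounds of the chromosome, from 21.3 to 44 fragments. Only 1 of these had its summit within 3 kb of the gene's start, 1.25 kb away, and it had the lowest pileup (79, limits 62.5 to 98.5) and the lowest background of the 8. The folds of the 8 were low for the chromosome, from 2.35 to 4.45, because background was high as well as pileup. At the nearest regions beyond the gene the background was 10.9 at chr17:50178119-50179137, with a pileup of 112 and a fold of 9.5, and 6.12 at chr17:50209567-50209992, with a pileup of 39. An AP-1 match was present in 1 of the 8 regions inside the gene, where 36.1% of all regions of the chromosome had one.

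VMP1, which encodes a membrane protein needed for autophagy and whose last part overlaps the gene of the microRNA miR-21, held the most regions of any gene, 13 over 135 kb. Its first locus of 6 regions was wholly intronic (chr17:59753441-59770213, 16.8 kb), with pileups from 16 to 129 (limits of the highest 108 to 153). The other, at the end of the gene (chr17:59825454-59855992, 30.5 kb), also had 6 regions, with pileups from 24 to 127. The summits nearest to the start of MIR21 were 3.46 kb before it, with a pileup of 125 (104 to 149), a background of 12.4 and a fold of 9.38, and 2.14 kb after it, with a pileup of 127 (106 to 151), a background of 16.8 and a fold of 7.20. Unlike in COL1A1, high pileups were found here beside folds above 7. The promoter of VMP1 itself had a pileup of 21 (13.0 to 32.1) and a background of 2.42.

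The remaining locus of this size crossed FAAP100, a subunit of the Fanconi anaemia core complex, and NPLOC4, a cofactor of the segregase VCP, at chr17:81553126-81582701. Its 7 regions in 29.6 kb had pileups of 20 to 41 and backgrounds of 1.64 to 3.84 and a median background of 3.30, above the 1.88 of single regions. The backgrounds of the COL1A1 run (6.12 to 44) lay wholly above that range, and those of the VMP1 runs overlapped it. Runs of 4 were found at the ubiquitin ligase gene MARCHF10, at KRBA2 and the ribosomal protein gene RPL26 on 17p, at VPS25 and the kinase gene WNK4, between genes near KRT20, at PGS1 and at LINC01970. The other runs of 4, outside the rule for named genes and added after their values were seen, were at MXRA7 and JMJD6, at NSF and at PICART1.

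**Figure D5:**
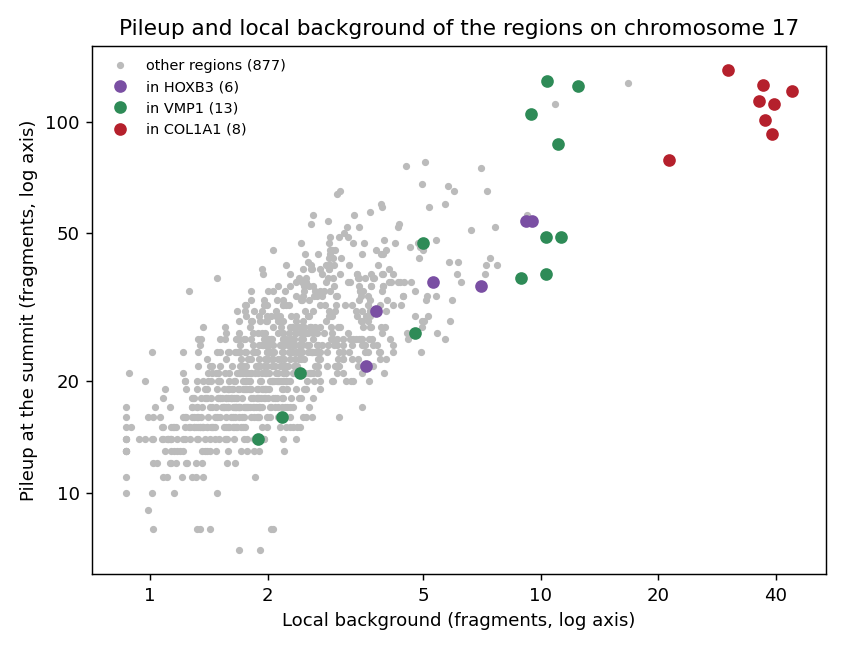
Local background (x axis, fragments) and pileup at the summit (y axis, fragments) of the 904 regions, both on log axes, with those in COL1A1 (8), VMP1 (13) and HOXB3 (6) in colour. The COL1A1 regions stand apart at backgrounds from 21.3 to 44, while VMP1 regions reach pileups of up to 129 at backgrounds near 10.

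Of 1186 protein-coding genes on the chromosome, 439 (37.0%, limits 34.3 to 39.8%) had a region in the gene body, where an overlap of 1 bp counted. This share is the background for the gene lists below, and elsewhere in the genome it was 33.4%. Counted by the position of the summit, 330 genes had one. A single region was found in 324 genes, at least 3 in 49 and at least 5 in 19. Genes with a region were longer, with a median of 33.1 kb against 12.4 kb for those without. Length accompanied most of the high counts too. BCAS3 had 11 regions over 715 kb, of which 0.710% was covered, with pileups from 9 to 45. NF1, which encodes neurofibromin, a negative regulator of RAS, had 10 over 287 kb with pileups from 15 to 35, a pair of them at its start. SMG6, a nuclease of nonsense-mediated decay, had 9, and PRKCA (protein kinase C alpha) and RPTOR (a subunit of mTORC1) had 8 each. COL1A1 had as many in a gene of 17.5 kb. CUEDC1 followed with 7, and SEPTIN9, TOM1L2 and HOXB3 with 6 each, as did ENSG00000259753, which overlaps ITGB3 and shares its regions. SMURF2, the phosphatase gene SSH2 and NPLOC4 had 5.

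Among the 17 matrix genes of the chromosome 8 had a region in the body (47.1%, against 37.0% of all coding genes of the chromosome). Besides COL1A1 these were the integrin subunit genes ITGB3 (4 regions, pileup up to 35) and ITGA3 (2, up to 34), the metalloproteinase inhibitor gene TIMP2 (2, up to 39, limits 27.7 to 53.3), the metalloproteinase gene MMP28 (pileup 28), MFAP4, a microfibril-associated protein (16), MRC2, an endocytic collagen receptor (14), and P4HB, a subunit of prolyl 4-hydroxylase (26). Their highest pileups were above the chromosome's median of 23 for all but MFAP4 and MRC2. That median is of single regions, so a highest value favours genes with several regions, such as COL1A1, ITGB3, TIMP2 and ITGA3. MMP28 and P4HB had 1 region each, with limits that include 23. Whether pileups were higher than usual in the matrix genes was not tested. FKBP10 and P3H4, which modify or fold collagen, SERPINF1, VTN and SOST were among those with 0. Of 5 stellate cell genes 3 had one (60%, against the same 37.0%). These were COL1A1, GFAP with 2 (pileups 14 and 18) and the globin gene CYGB with 1 (pileup 25, limits 16.2 to 36.9). The chemokine gene CCL2 had a region only before its start, within 3 kb, and NGFR had none. COL1A1 is on both lists, which were chosen with earlier results of these data known. Whether the shares of these short lists differ from 37.0% was not tested.

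Of 21 growth and signalling genes 16 had a region (76.2%), and the genes were long, with a median of 57.5 kb. The retinoic acid receptor gene RARA had a single region with a pileup of 59 (44.9 to 76.1) and a fold of 12.2. RPS6KB1 had 1 with a pileup of 45 and STAT3, a factor of cytokine signalling, 1 with a pileup of 30. The genes of the factors TBX2 (28) and SOX9 (18) and of AXIN2 (13), an inhibitor of WNT signalling, had 1 each, as did ERBB2 (17). Some of these overlaps were short, with 125 bp in RPS6KB1, 77 bp in AXIN2, 67 bp in STAT3 and 35 bp in SOX9. The region in RPS6KB1 covered more of TUBD1 (260 bp), and that in ERBB2 (386 bp) more of PGAP3 (571 bp). SOCS3, STAT5A, STAT5B and THRA were among those with 0. Several members of this list, VMP1 and BCAS3 among them, had been put on it with their counts known, so its share is not comparable with the background.

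The gene clusters of the chromosome differed in their number of regions. Of 10 HOXB genes, which set position along the body axis, 6 had a region (60%, against 37.0% of all coding genes of the chromosome). A region within 3 kb of the start was found for 3 of the 10, where 28.2% of all coding genes had one. The span from HOXB13 to HOXB1 held 10 regions in 0.2 Mb (49.9 per Mb), with pileups from 22 to 54 and a median background of 5.62. HOXB3 alone overlapped 6, with pileups of 36, 37, 54, 54, 31 and 22 along the gene. Part of these lie in the neighbouring genes HOXB4 to HOXB6, which overlap HOXB3 transcripts, so they are not separate marks of each gene. HOXB7 and HOXB9 also shared 1 region (pileup 29), so the count of 6 genes uses some regions more than once. In contrast, both chemokine clusters (0.108 and 0.341 Mb), the olfactory receptor cluster (0.371 Mb) and the skeletal myosin cluster (0.356 Mb) held 0 regions. The nonmuscle myosin gene MYH10 lies apart from that cluster and had 1 region at its start, with a pileup of 19 (11.4 to 29.7). The 0.108 Mb span begins at CCL2, so the region before the start of that gene lies outside it. The whole chromosome had 10.9 regions per sequenced Mb, so few would fall in spans this short. Whether these clusters are poor in regions was not tested.

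The keratin cluster was different from these. Only 3 of 26 type I keratin genes (KRT34, KRT32 and KRT15) and 1 of 34 keratin-associated protein genes (KRTAP1-5) had a region in the body. KRT33B, whose symbol ends in a letter and which was not on the list, also had 1 (pileup 17). Yet the span from KRT222 to KRT17 held 31 regions in 0.970 Mb (32.0 per Mb). 21 of the 31 were in the promoter class. A region within 3 kb of the start was found for 5 of 26 keratin genes and for 10 of 34 keratin-associated genes, whose bodies are short (median 0.974 kb), where 335 of all 1186 coding genes of the chromosome had one (28.2%). Pileups ran from 7 to 44 with a median of 26, and the backgrounds from 1.33 to 7.21 with a median of 2.55. The highest pileup, 44 (32.0 to 59.1) at chr17:41049074-41049501, lay 1.92 kb from the start of KRTAP2-1, and the highest backgrounds, 6.26 and 7.21, belonged to neighbouring regions whose summits lay 0.448 and 2.10 kb from the start of KRTAP2-3. An AP-1 match was present in 16 of the 31 (51.6%). Over the chromosome it was present in 36.1% of all regions, 25.7% of promoter regions and 50.0% of the others. Whether the cluster differs from these shares was not tested. The genes are close copies of each other, and for 2 of the 31 regions the central 31 bases occurred at more than 1 place in hg38. That count holds exact matches only, so copies with small differences are missed.

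By annotation, 518 regions (57.3%, limits 54.1 to 60.5%) lay within 3 kb of a transcript start, against 38.4% on the other chromosomes. 224 were intronic (24.8%, against 36.4%), 132 were distal intergenic (14.6%, against 22.0%), and 30 were in a 3′ UTR, another exon or just downstream of a gene. The promoter share was higher only on chromosome 19 (73.3%), and was 55.2% on chromosome 16 and 52.0% on chromosome 22. It depends on what counts as a start. With protein-coding starts only it was 48.0%, and within 1 kb it was 44.1%. All 8 regions of COL1A1 were promoter regions in this sense because annotated transcripts also start inside the gene.

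The motif counts differed with the class. An AP-1 match within 200 bp around the summit was found in 193 of 386 regions outside promoters (50.0%, limits 45.0 to 55.0%) and in 133 of 518 promoter regions (25.7%, 22.1 to 29.6%), and those limits do not overlap. Over all full-length regions the shares were 50.7% and 28.3%, and of the 411591 tiles of 200 bp of chromosome 17 outside regions 5.36% had one. In all, 36.1% of the regions on the chromosome and 41.9% of the whole list had a match. For TEAD the shares were 18.5% on the chromosome, 21% in the whole list and 11.5% in tiles, and for RUNX they were 16.6%, 17.4% and 14.6%. SP/KLF matches, typical of CpG-rich promoters, were present in 36.5% of promoter regions and 5.44% of the others on the chromosome. Over all full-length regions those shares were 32.3% and 3.11%. Without the split by class, 23.2% of the regions on the chromosome, 14.6% of the whole list and 5.16% of tiles had one. NFY matches were found in 35.7% of the regions (30.8% of the whole list, 22.7% of tiles) and ETS matches in 4.09% (2.95% and 0.728%). The GC content followed the same division, with a median of 56.0% in promoter regions and 45.5% in the others, where tiles had 45.0%. On 17p 31.8% of regions (25.1 to 39.5%) and on 17q 36.9% (33.6 to 40.5%) had an AP-1 match. A match is a run of letters and does not show that a factor was bound.

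By fold, the highest regions were mostly not those of the dense loci. The region in NKIRAS2 (chr17:42024763-42025137) had a fold of 16.3, with a pileup of 65 (50.2 to 82.8) over a background of 3.06. Close to it came the start of CTNS, a lysosomal cystine transporter gene, and SHPK (fold 16, pileup 35), NLRP1, an inflammasome sensor gene (15.8, pileup 56), the adaptor gene CRK (15.7, pileup 38) and the region near CAVIN1 (15.1, pileup 53). The last of the 10 highest folds was at USP22, a deubiquitinase gene of the SAGA complex (13.9, pileup 47). Of these 10, 4 were on 17p, where the arm held 157 of the 904 regions.

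The second highest fold, 16.2 with a pileup of 64 (49.3 to 81.7), belonged to chr17:26885277-26885574, inside the gene-free stretch and 409 kb from the nearest coding start, that of WSB1, a ubiquitin ligase subunit gene. It was the 1 region of the chromosome that the dZF list shared. The dZF region, chr17:26885277-26885549, lay wholly within it and had a pileup of 35 (24.4 to 48.7), a background of 1.74 and a fold of 13.1. It is the region whose central 31 bases occur 1347 times in hg38. The pools of the constructs may differ in depth, so their pileups are not compared. No dZF region was listed at COL1A1, VMP1, HOXB3 or elsewhere on the chromosome, and since each list keeps only what passed its own filter, signal below that filter was not analysed here.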

How the data were processed

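CUT&RUN libraries (6 in 2 groups of 3, by their titles) were analysed as the 2 peak lists that the authors deposited, 1 per group. Per the labels, the processing named Bowtie2 2.3.4.3, MACS2 2.2.5 and hg38, and the lists were filtered by irreproducible discovery rate. Use of a control library is not given in the sources used here. The deposited columns hold a score, a fold enrichment (a ratio), a −log10 p-value and a −log10 q-value and the offset of the summit, all pooled per group. The score and the q-value entered no result. The authors' fold and −log10 p-value were solved for pileup and background, taking fold as (pileup + 1)/(background + 1) and p as the Poisson tail, and the procedure was tested on simulated records.

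Annotation used GENCODE version 44, with promoters of 3 kb on either side of a start and downstream regions of 300 bp, and classes ranked as ChIPseeker ranks them. Bins were 1 Mb, motif windows 200 bp. The named genes were the 15 with most regions, those nearest the 10 regions highest in fold, pileup or background, those of the densest loci and of the 5 fullest and 5 emptiest bins, and the members of the lists. Members, lists and rules were chosen with earlier results of these data known. No test was made, since regions are not replicates and each list is 1 pool. Depth per library was not analysed here, and Poisson and Wilson limits give the counting precision. Alternatives were other windows, bins, gaps, boundaries and stricter cuts on fold or pileup. Selection was by puromycin per the series' design text and by Geneticin per the study's methods. Python 3.11.15, pandas 2.3.3, scipy 1.17.1 and matplotlib 3.10.9 were used.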

Additional observations from a re-analysis of the deposited data

How the results depend on the processing

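Of 38 alternatives over 9 results, 26 left the value unmoved and 12 moved it, where a share moved when it left its 95% limits and a ratio, correlation or count when it changed by over 1.5 times. 6 of the 38 were chosen after seeing the data (isolated regions, leaving out the bins of COL1A1, VMP1 and HOXB, each arm alone, leaving out the 5 bins with most coding starts, and leaving out COL1A1 regions), and these 6 were among the 26. The density ratio of 1.71 became 0.789 per protein-coding gene, on the other side of 1. The rank correlation with coding starts (0.582) was 0.21 outside promoters. The promoter share (57.3%) was 44.1% with a 1 kb window, 48.0% with coding starts only and 62.4% in the upper 25% by pileup. The 4 loci of at least 5 regions became 1 with gaps of 5 kb and 16 with gaps of 20 kb. The 439 genes with a region became 234 without the first 3 kb of each gene and 155 with the upper 25% of regions by fold. The AP-1 share (36.1%) was 22.9% in 100 bp, 46.9% in 400 bp and 39.4% in the upper 25% by fold. The cause of these shifts was not tested. The ratio of background between the arms lay between 1.39 and 1.59 over its 7 alternatives. Among these, a boundary at 25 Mb could not change the ratio, since the bins from 23 to 26 Mb held no region. It is nevertheless counted among the 26. No paired analysis was possible because the deposited lists are pools of 3 libraries without values for any 1 of them, and for the same reason no library could be left out.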
